A study of Caenorhabditis elegans with 6 samples.

Results

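The enzymes of the methionine cycle and of phosphatidylcholine synthesis were followed through 10 genes, found by their names among the 45132 genes listed in every library. They are sams-1, sams-3, sams-4 and sams-5, which encode S-adenosylmethionine synthetases, metr-1 for methionine synthase, pmt-1 and pmt-2 for phosphoethanolamine methyltransferases, pcyt-1 for choline-phosphate cytidyltransferase, and cept-1 and cept-2 for choline/ethanolamine phosphotransferases. Whole Caenorhabditis elegans of the wild-type laboratory strain N2 gave the RNA. There were 3 libraries of worms given vit-5 RNAi, bacteria that silence a yolk protein gene, and 3 of worms given L4440, the empty vector used as control RNAi. Both groups received RNAi as larvae, were moved to E. coli OP50 as young adults at 20°C and were collected as 5-day-old animals, so RNAi feeding had ended before collection in both. Nothing in the labels tells whether the replicates of a group were grown apart, so the p-values reflect the spread of these libraries alone, and that spread may be technical.

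Methionine is joined with ATP to make S-adenosylmethionine, the methyl donor of the cell, and the spent product is turned into homocysteine and back into methionine by methionine synthase with vitamin B12 and folate. In worms, phosphoethanolamine is methylated to phosphocholine by PMT-1 and then PMT-2, which makes phosphatidylcholine synthesis a large user of S-adenosylmethionine. Phosphocholine, made this way or from dietary choline, is activated by the cytidyltransferase and joined to diacylglycerol by the phosphotransferases. Low phosphatidylcholine is known in worms to raise the activity of SBP-1, the worm SREBP, and yolk carries phospholipid as well as protein to oocytes.

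Each library gave 1 FPKM value per gene, fragments scaled by transcript length and library depth. A search over a preset range of depths, scored by the spacing of the lowest values, put the depth roughly between 17300000 and 20800000 fragments. At most 34.2% of those values fell within 0.1 of a whole fragment, so these depths are uncertain. The target vit-5 stood at 116, 51.6 and 22.8 FPKM in vit-5 RNAi libraries, against 2335, 1396 and 1573 FPKM in control libraries (log2 fold change -5.03, SE 0.50, limma adjusted p 0.0552). The libraries differed in ways that crossed the groups. A list of 15 larval molt and cuticle genes summed to 325, 337 and 814 FPKM in the vit-5 RNAi libraries and 249.6, 495 and 553 FPKM in the control libraries, although all are labelled adult. Ribosomal RNA took 0.209% to 2.68% of the FPKM sum in vit-5 RNAi libraries and 0.450% to 1.95% in control libraries. A list of 15 germline and oocyte genes summed to between 4065 and 6998 FPKM after vit-5 RNAi and between 6169 and 7892 FPKM in controls. None of the genes of either list was at 0 in all libraries. In whole worms, fewer cells of a type and less RNA per cell cannot be told apart.

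No gene of the 10 passed the test between vit-5 RNAi and control worms. All 10 were among the 12908 genes tested, those reaching 1 FPKM in 3 or more libraries, and sams-5 reached that minimum in exactly 3, 2 of vit-5 RNAi and 1 control. By limma on log2(FPKM + 1), 0 of the 10 had an adjusted p under 0.05, where 0% of all tested genes did, and 0 of the 10 had an unadjusted p under 0.05, where 27.1% of all tested genes did. Adjusted p-values (limma, Benjamini-Hochberg over all tested genes) ran from 0.235 for metr-1 to 0.99 for cept-1. The log2 fold changes lay between -0.23 (pmt-2) and 0.35 (metr-1), and every 95% interval lay between -0.67 and 0.88. Differences of more than 2-fold in FPKM + 1, as deposited, fell outside each interval. For sams-5, at 0.958 FPKM on average, the added 1 shrinks the fold change, so a 2-fold difference in FPKM itself is not excluded. Its log2 fold change was 0.25, and 0.47 with a pseudocount of 0.1. The median of the 10 log2 fold changes was 0.16, against 0.34 for all tested genes. Of the 10, 9 lay below the median of all tested genes. That median is not matched for level, since tested genes from 50 to 200 FPKM had a median of 0.09. In that class sams-1, sams-3, sams-4, pmt-1 and cept-2 lay above the class median and pmt-2 below it.

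A positive log2 fold change was seen for 8 of the 10 genes, where 79.5% of all tested genes had one, but that direction rests on the scaling. Median-of-ratios scaling brought the median of all tested genes to 0.03, a shift of 0.31, and turned the sign of 6 of the 10. Upper-quartile scaling turned 5 and quantile scaling 7. The sole gene whose 3 vit-5 RNAi values all lay above its 3 control values was metr-1, as did those of 30.8% of all tested genes, and no member had all 3 below, as 3.15% of tested genes had.

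**Figure D1:**
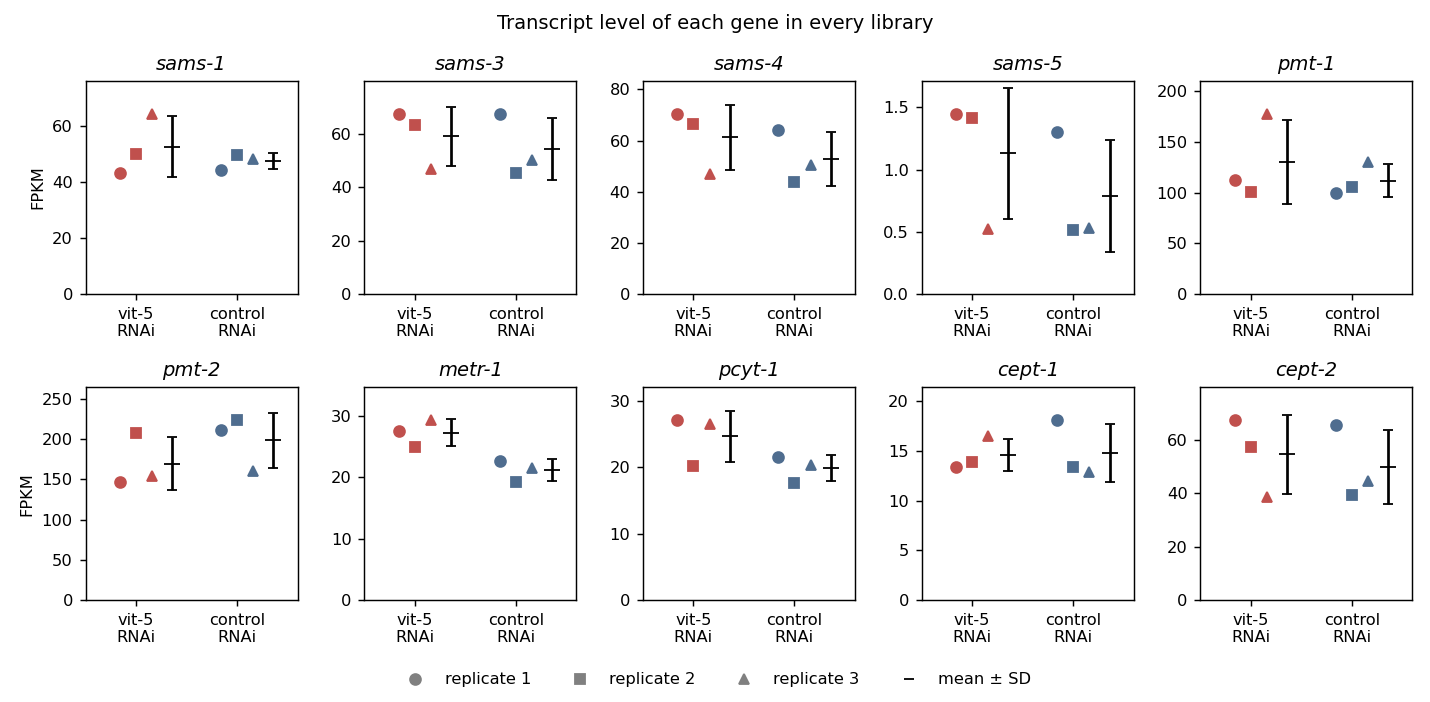
FPKM (vertical axes, each starting at 0) of the 10 genes in the 3 vit-5 RNAi libraries and the 3 control RNAi libraries; symbols mark replicates, bars the mean ± SD (n = 3). The groups overlap in 9 panels, and metr-1 is the panel where they separate (24.97 to 29.4 against 19.2 to 22.7 FPKM).

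**Figure D2:**
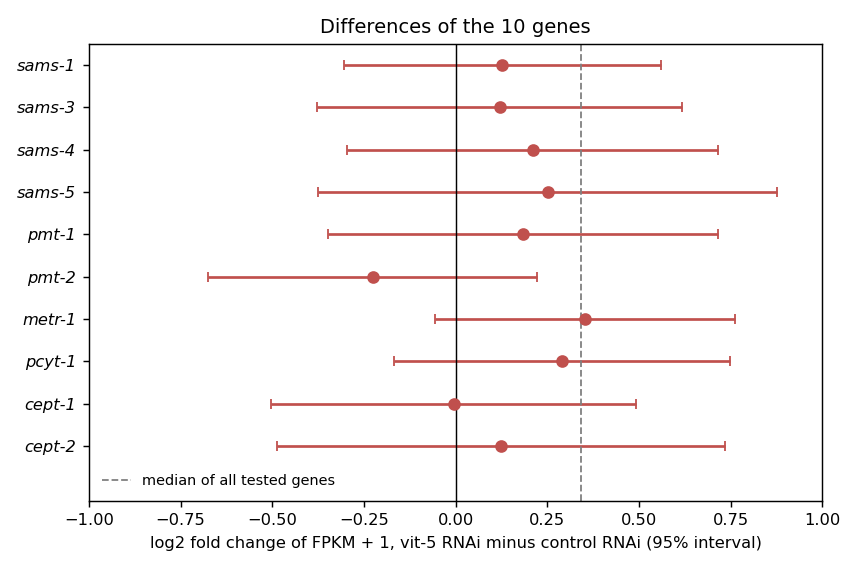
Log2 fold change of FPKM + 1 from limma, vit-5 RNAi minus control RNAi, with its 95% interval (horizontal axis), for each of the 10 genes; the dashed line is the median of all 12908 tested genes at 0.34. All 10 intervals include 0, and metr-1 at 0.35 lies closest to the dashed line.

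Of the S-adenosylmethionine synthetases, sams-1, sams-3 and sams-4 had levels whose ranges overlapped, and sams-5 lay far below them. The gene sams-1 (gene ID 181370; WBcel235, X, 11965962 to 11969893, plus strand) encodes the synthetase whose loss is known in worms to lower phosphatidylcholine and raise fat storage. It had 43.3, 50.2 and 64.5 FPKM in vit-5 RNAi worms, against 44.4, 49.8 and 48.3 FPKM in control worms. The control libraries lay close together, and vit-5 RNAi replicate 3 was the highest of the 6. The log2 fold change was 0.13 (SE 0.19, limma adjusted p 0.676), and without vit-5 RNAi replicate 3 it was -0.026.

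The genes sams-3 and sams-4 lie 2287 bases apart in opposite directions on chromosome IV (sams-4 at 5844061 to 5846369, minus strand; sams-3 at 5848657 to 5850843, plus strand). Their sequences are close, so fragments may have been counted for the wrong one of them or of sams-5, and their separate values are uncertain. In vit-5 RNAi worms sams-3 had 67.4, 63.2 and 46.7 FPKM, against 67.6, 45.4 and 50.3 FPKM in control worms. For sams-4 the vit-5 RNAi libraries held 70.5, 66.4 and 46.9 FPKM, against 64.2, 43.6 and 50.3 FPKM in the control libraries. In both genes vit-5 RNAi replicate 3 sat with control replicates 2 and 3, and control replicate 1 sat with the remaining vit-5 RNAi libraries. The log2 fold changes were 0.12 (SE 0.22) and 0.21 (SE 0.22), with limma adjusted p of 0.738 and 0.55. Dropping control replicate 2 brought them to 0.0020 for sams-3 and 0.086 for sams-4, the lowest of any single library dropped. The highest were 0.28 for sams-3, when control replicate 1 was dropped, and 0.39 for sams-4, when vit-5 RNAi replicate 3 was dropped. The level of sams-3 over that of sams-4 was 0.956, 0.951 and 0.996 in vit-5 RNAi libraries and 1.05, 1.04 and 0.9997 in control libraries, a ratio that was picked after its values were seen and was not tested.

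The gene sams-5 (IV, 6277436 to 6279522, minus strand) was nearly silent beside its relatives. It had 1.45, 1.42 and 0.526 FPKM in vit-5 RNAi worms, against 1.30, 0.519 and 0.533 FPKM in control worms, and the libraries fell into the same high and low sets as for sams-3 and sams-4. At the rough depths above this was 12 to 37 fragments per library in vit-5 RNAi worms and 14 to 36 in control worms. It amounted to 0.562% to 1.09% of the sams-3 and sams-4 sum after vit-5 RNAi and 0.531% to 0.989% in controls. Reads shared with those copies were not told apart. Non-coding transcripts are listed beside the coding one for these copies, 3 for sams-3, 1 for sams-4 and 1 for sams-5, and none for sams-1. In worms METT-10, a methyltransferase of RNA, is known to mark the transcripts of the copies and alter their splicing. One FPKM per gene does not separate the coding and the non-coding transcripts. The level of mett-10 itself was 15.8, 13.01 and 11.9 FPKM in vit-5 RNAi worms, against 13.5, 7.61 and 9.36 FPKM in control worms (log2 fold change 0.41, limma adjusted p 0.318, and -0.047 after quantile scaling).

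Summed over the 4 synthetases, vit-5 RNAi worms had 174 ± 13.5 FPKM and control worms 155 ± 19.8 FPKM (SD, n = 3 each; exact permutation p 0.2, 2-sided). The smallest p that 3 libraries against 3 can give is 0.1. The ratio of these means was 1.12, and 0.875 after median-of-ratios scaling, so its direction rests on the scaling. The copies sams-3, sams-4 and sams-5 together had 122 ± 24.1 FPKM after vit-5 RNAi and 108 ± 22.5 FPKM in controls (exact permutation p 0.6). The share of the synthetase sum in sams-1 does not depend on scaling by a single factor per library. It was 23.7%, 27.7% and 40.7% in vit-5 RNAi libraries, against 25.03%, 35.7% and 32.3% in control libraries (exact permutation p 1). The spread within the vit-5 RNAi group, 8.87 percentage points (SD), was far larger than the difference of the means, -0.35.

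Methionine synthase, the vitamin B12 enzyme that remakes methionine, was the member with the smallest p. The gene metr-1 (II, 10926561 to 10931078, plus strand) had 27.5, 24.97 and 29.4 FPKM in vit-5 RNAi worms, against 22.7, 19.2 and 21.5 FPKM in control worms. The groups did not overlap, as for 30.8% of all tested genes. The log2 fold change was 0.35 (SE 0.18, 95% interval -0.06 to 0.76, limma adjusted p 0.235), which is 0.01 above the median of all tested genes, and it was 0.0037 after median-of-ratios scaling. Over the alternatives its adjusted p ran from 0.0865 to 0.995. The log2 ratio of sams-1 to metr-1 within a library averaged 0.93 ± 0.25 in vit-5 RNAi worms and 1.17 ± 0.20 in control worms (SD, n = 3 each; exact permutation p 0.4).

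The methyltransferases that make phosphocholine were the most abundant of the 10 and did not move together. The gene pmt-1 (II, 5278090 to 5282517, minus strand), for the first methylation, had 112, 100.5 and 178 FPKM in vit-5 RNAi worms, against 99.9, 105 and 129.8 FPKM in control worms. One library, vit-5 RNAi replicate 3, stood above all others. For pmt-1 the log2 fold change was 0.18 (SE 0.23, limma adjusted p 0.625), and -0.063 without that library.

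The gene pmt-2 (V, 4628580 to 4635263, plus strand), for the later methylations, had 147, 207 and 154 FPKM in vit-5 RNAi worms, against 211, 224 and 159.7 FPKM in control worms. Replicates 1 and 3 of vit-5 RNAi were below every control, and replicate 2 was within the control range. The log2 fold change of -0.23 (SE 0.20, 95% interval -0.67 to 0.22, limma adjusted p 0.462) was the lowest of the 10, at percentile 7.31 of all tested genes. After median-of-ratios scaling it was -0.59 with a limma adjusted p of 0.213, and pmt-2 was then the 1 member with an unadjusted p under 0.05, where 21.3% of all tested genes had one. Over the alternatives the adjusted p of pmt-2 ran from 0.213 to 0.902. The log2 ratio of pmt-2 to pmt-1 within a library was 0.39, 1.05 and -0.21 in vit-5 RNAi libraries, against 1.08, 1.09 and 0.30 in control libraries (difference of means -0.41, exact permutation p 0.5). In vit-5 RNAi replicate 3, pmt-1 exceeded pmt-2, which happened in no other library. With vit-5 RNAi replicate 3 and control replicate 2, the libraries with most ribosomal RNA in their groups, left out, the difference was 0.029.

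Phosphocholine, whether made by methylation or from dietary choline, is activated through pcyt-1 (X, 7572357 to 7581055, plus strand), whose product makes CDP-choline. It had 27.2, 20.2 and 26.6 FPKM in vit-5 RNAi worms, against 21.6, 17.7 and 20.4 FPKM in control worms. Replicate 2 of vit-5 RNAi lay within the control range, and the others lay above it. The log2 fold change was 0.29 (SE 0.20, limma adjusted p 0.361), and -0.058 after median-of-ratios scaling. The log2 ratio of pmt-1 to pcyt-1 averaged 2.37 ± 0.35 in vit-5 RNAi worms and 2.49 ± 0.24 in control worms (SD, n = 3 each; exact permutation p 0.8). An opposite-strand gene, unc-98, overlaps pcyt-1 over 1263 bases and reached 16.3 FPKM, and no source used here gives the strandedness, so reads of the overlap could not be assigned with certainty.

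The last step is shared by cept-1 and cept-2, whose products join the activated head group to diacylglycerol. The gene cept-1 (X, 12762078 to 12765897, plus strand) had 13.4, 13.9 and 16.4 FPKM in vit-5 RNAi worms, against 18.1, 13.3 and 12.8 FPKM in control worms. Both groups spanned nearly the same range, and the log2 fold change was -0.0054 (SE 0.22, 95% interval -0.50 to 0.49). The whole of cept-1 lies within the bounds of an opposite-strand gene, nhr-27, at up to 5.41 FPKM, so its reads are uncertain in the same way. The gene cept-2 (V, 14347766 to 14351482, plus strand) had 67.5, 57.4 and 38.7 FPKM in vit-5 RNAi worms, against 65.7, 39.3 and 44.7 FPKM in control worms. Its highest and its lowest value were both in the vit-5 RNAi group, and its log2 fold change was 0.12 (SE 0.27, limma adjusted p 0.781). The log2 ratio of cept-2 to cept-1 averaged 1.87 ± 0.57 in vit-5 RNAi worms and 1.74 ± 0.16 in control worms (SD, n = 3 each; exact permutation p 0.8). With 7 sums, shares and ratios compared in all, the Benjamini-Hochberg adjusted permutation p was 0.933 or 1 for each.

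By mean FPKM over all 6 libraries the order of the levels was pmt-2 (184), pmt-1 (121), sams-4 (57.0), sams-3 (56.8), cept-2 (52.2), sams-1 (50.1), metr-1 (24.2), pcyt-1 (22.3), cept-1 (14.7) and sams-5 (0.958). Ranges of neighbours separated at 3 places, between pmt-1 and sams-4, between sams-1 and metr-1, and between cept-1 and sams-5. The genes from sams-4 to sams-1 did not differ from their neighbours beyond their spread. Although their ranges overlapped, metr-1 was above pcyt-1 in all 6 libraries, and so was pcyt-1 above cept-1. The highest library exceeded the lowest by 1.41 times for cept-1 to 1.78 times for pmt-1, and by 2.79 times for sams-5.

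Within the groups, sams-3, sams-4, sams-5 and cept-2 varied together. In the order of rising larval molt transcripts, which is control replicate 1, vit-5 RNAi replicates 1 and 2, control replicates 2 and 3 and vit-5 RNAi replicate 3, cept-2 stood at 65.7, 67.5, 57.4, 39.3, 44.7 and 38.7 FPKM. In the same order sams-3 stood at 67.6, 67.4, 63.2, 45.4, 50.3 and 46.7 FPKM. The germline and oocyte list summed in that order to 7892, 6998, 6795, 6169, 6306 and 4065 FPKM. All 4 genes were therefore above their own mean in the 3 libraries poorest in molt transcripts and below it in the 3 richest, of which 2 were controls and 1 was vit-5 RNAi. The part of larval stages, germline content or ribosomal RNA in this was not tested. Pearson's r of log2(FPKM + 1) over the 6 libraries, given as a description, was 0.993 between sams-3 and cept-2, 0.980 between sams-3 and sams-4 and 0.970 between sams-3 and sams-5. Such likeness was common, since 353 tested genes had an r above 0.95 with sams-3.

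The genes sams-1 and pmt-1 went the other way, with their highest values in vit-5 RNAi replicate 3, the library richest in molt transcripts. Over the 6 libraries r was -0.753 between sams-1 and cept-2 and 0.814 between sams-1 and pmt-1. Spearman rho for sams-1 and pmt-1 was 0.314. With the molt level of each library as a covariate, the log2 fold changes were 0.20 for sams-3, 0.29 for sams-4, 0.35 for sams-5 and 0.23 for cept-2. Those values passed in none of the 4 genes, with limma adjusted p from 0.103 for sams-4 to 0.241 for sams-3, in a fit that called 31.5% of all tested genes and 0 of the 10. At an unadjusted p under 0.05 that fit held 2 of the 10, metr-1 and sams-4, against 45.7% of all tested genes. With the germline level as covariate 0 of the 10 and 27.9% of all tested genes passed the adjusted threshold.

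**Figure D3:**
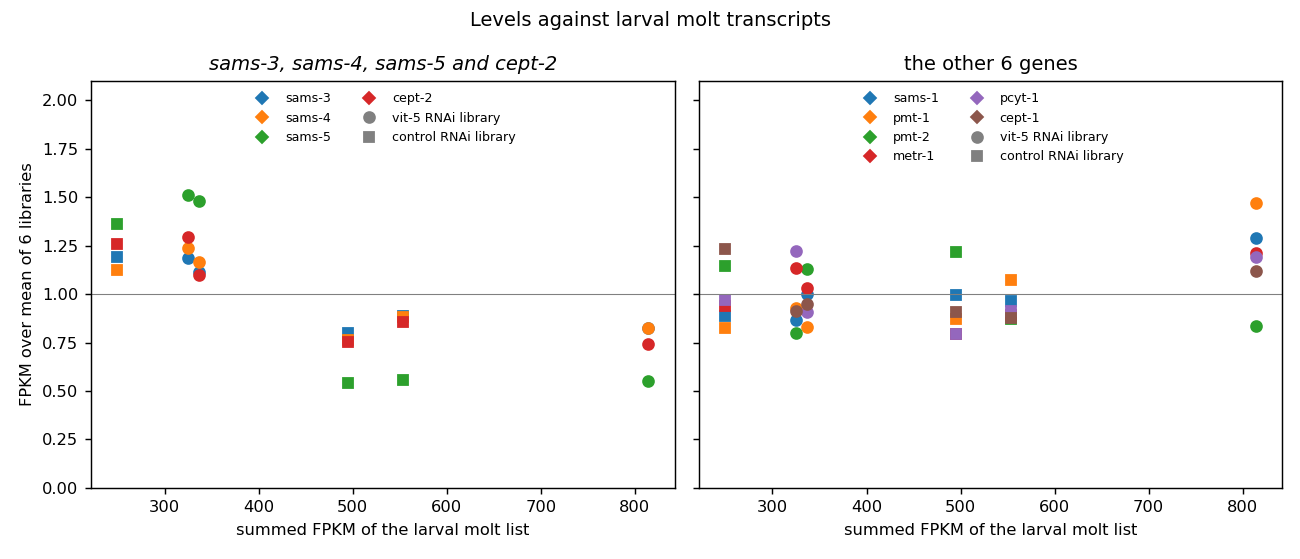
FPKM of each gene divided by its mean over the 6 libraries (vertical axis) against the summed FPKM of the 15 larval molt genes in the same library (horizontal axis); circles are vit-5 RNAi and squares control RNAi libraries. On the left, the 3 libraries at 249.6 to 337 FPKM lie above 1 and the 3 at 495 to 814 FPKM lie below 1; on the right, sams-1 and pmt-1 are highest at 814 FPKM, a vit-5 RNAi library.

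The 3 genes whose pattern over the 6 libraries was most like that of each member were named without regard to function. For sams-3 they were T04C12.1, mrp-7 and C01F1.6, with r from 0.997 to 0.998. For cept-2 they were C41G7.3, gtf-2H2C and F58G11.3, with r from 0.997 to 0.999. For sams-4 they were srv-7, M151.4 and F26E4.4, and for sams-5 ces-2, Y54E10A.6 and T27A1.3. For sams-1 they were C43F9.11, K07C5.9 and fipr-3, and for pmt-1 R102.6, K02D7.1 and C05D9.3. For metr-1 they were Y57G11C.31, T28F4.1 and lron-2, and for pcyt-1 C01G6.4, tasp-1 and skr-1. For pmt-2 they were nlp-77, ZC334.13 and Y19D2B.1, with only 5 tested genes at an r above 0.95. For cept-1 they were C06C3.13, acdh-2 and Y37E11B.11, with 1 gene above 0.95, so these patterns were shared with the fewest genes. None of the 30 places was taken by another of the 10.

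The connected pathways were read from 6 written lists. Of their 76 genes 75 were found and 73 tested. By limma 0 of the 73 passed over all genes, and at an unadjusted p under 0.05 there were 14 higher and 2 lower. That is 19.2% higher, against 26.2% of all tested genes, and the lower calls are against 0.906% of all tested genes. The median log2 fold change of the 73 was 0.31, near the 0.34 of all tested genes. With the molt covariate 21 of them (28.8%) passed an adjusted p of 0.05, against 31.5% of all tested genes.

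The methionine cycle and folate list held the lower gene with the smallest p. Of 13 tested genes 0 were higher and 1 was lower at an unadjusted limma p under 0.05, against 26.2% higher and 0.906% lower of all tested genes. For these 13 the median of the list was 0.24, or -0.12 after median-of-ratios scaling. The lower gene was ahcy-1, for S-adenosylhomocysteine hydrolase, which clears the product left by methylation. It had 795, 763 and 789.6 FPKM in vit-5 RNAi worms, against 1033, 996 and 1007 FPKM in control worms. The libraries of each group lay within a few percent of each other. All 3 vit-5 RNAi values lay below all 3 control values, as for 3.15% of all tested genes. The log2 fold change was -0.37 (SE 0.12, 95% interval -0.64 to -0.10, limma unadjusted p 0.0126 and adjusted p 0.128). Its sign held under each of the 15 alternatives, from -0.73 after median-of-ratios scaling to -0.26 after quantile scaling, and its limma adjusted p ran over them from 0.0271 with the germline covariate to 0.431 without control replicate 2.

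The level of ahcy-1 is above that of every member, and in this table genes at high levels had lower fold changes. Tested genes at 200 FPKM or more on average over the libraries (827 genes) had a median log2 fold change of -0.13, with 66.6% below 0. Those from 50 to 200 FPKM (1915 genes, among them 6 of the 10 members) had a median of 0.09, and those from 10 to 50 FPKM (4614 genes, with metr-1, pcyt-1 and cept-1) a median of 0.38. Above the median of their class were sams-1 (0.13), sams-3 (0.12), sams-4 (0.21), pmt-1 (0.18) and cept-2 (0.12). Below it were pmt-2, metr-1 (0.35), pcyt-1 (0.29) and cept-1 (-0.0054). So was sams-5 (0.25), among genes below 10 FPKM with a median of 0.45. Against their own level classes, ahcy-1 at -0.37 was below the lower quartile of -0.28 and pmt-2 at -0.23 below the lower quartile of -0.092. The class of ahcy-1 has no upper bound. Its means, 783 FPKM in vit-5 RNAi and 1012 FPKM in control worms, lay far above the lower bound of 200 FPKM. The place of ahcy-1 among genes at its own level is therefore not shown. With a mean of 184 FPKM, however, pmt-2 lay near the upper bound of its class. It was above the lower quartile of the class at 200 FPKM or more, so its place depends on that bound.

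The other methionine cycle genes named by the rule were higher on average. The reductase that keeps methionine synthase active, mtrr-1, had 17.3, 13.6 and 14.2 FPKM in vit-5 RNAi worms, against 11.5, 9.27 and 11.1 FPKM in control worms (log2 fold change 0.46, SE 0.21, limma adjusted p 0.193). For mthf-1, methylenetetrahydrofolate reductase, which supplies methyl folate, the means were 62.2 ± 5.55 FPKM in vit-5 RNAi worms and 52.6 ± 4.27 FPKM in control worms (SD, n = 3 each), a log2 fold change of 0.24 (limma adjusted p 0.349) that was -0.12 after median-of-ratios scaling. The log2 fold changes were 0.40 for gldc-1, a subunit of the glycine cleavage system, and 0.55 for alh-3, of formyltetrahydrofolate breakdown, with limma adjusted p of 0.254 and 0.277. Without vit-5 RNAi replicate 3, where alh-3 was highest at 36.4 FPKM, its log2 fold change was 0.25, and 0.11 when control replicate 2 was also left out. Quantile scaling gave -0.019 for gldc-1.

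In the transsulfuration list, 1 of 9 tested genes was higher and 0 lower at an unadjusted limma p under 0.05, where 26.2% of all tested genes were higher. The higher gene was ethe-1, for a persulfide dioxygenase, at 10.4 ± 1.70 FPKM in vit-5 RNAi worms and 5.51 ± 1.99 FPKM in control worms (SD, n = 3 each; log2 fold change 0.85, limma adjusted p 0.137). The values for cbs-1, which joins homocysteine to serine, were 14.6 ± 6.05 FPKM in vit-5 RNAi worms and 9.58 ± 2.93 FPKM in control worms. They were, for cdo-1, cysteine dioxygenase, 70.1 ± 36.4 FPKM in vit-5 RNAi worms and 40.4 ± 13.6 FPKM in control worms, and for cysl-1, a cysteine synthase relative, 32.5 ± 9.88 FPKM in vit-5 RNAi worms and 23.4 ± 3.98 FPKM in control worms (SD, n = 3 each). Limma adjusted p-values for these 3 genes were 0.267 to 0.312. For the 9 tested genes the median of the list was 0.28, or -0.082 after median-of-ratios scaling.

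In the vitamin B12 and propionate list, 3 of 14 tested genes were higher and 1 lower at an unadjusted limma p under 0.05, where 26.2% of all tested genes were higher and 0.906% lower. For these 14 the median of the list was 0.06, or -0.29 after median-of-ratios scaling. The gene mmaa-1, for the chaperone that delivers B12 to methylmalonyl-CoA mutase, had 44.96, 33.0 and 44.7 FPKM in vit-5 RNAi worms, against 25.1, 17.5 and 19.7 FPKM in control worms. Its log2 fold change was 0.95 (SE 0.21, limma adjusted p 0.122). The nuclear receptor gene nhr-10 had 12.1, 9.75 and 13.7 FPKM in vit-5 RNAi worms, against 6.68, 5.21 and 4.502 FPKM in control worms, and its log2 fold change was 0.99 with an SE of 0.24 (limma adjusted p 0.122). With NHR-68 it turns on the propionate shunt when B12 is short. For nhr-68 the means were 16.4 ± 3.92 FPKM in vit-5 RNAi worms and 8.65 ± 1.31 FPKM in control worms (SD, n = 3 each; log2 fold change 0.84, limma adjusted p 0.122). The lower gene was pccb-1, for a subunit of propionyl-CoA carboxylase, at 231, 239 and 249.5 FPKM in vit-5 RNAi worms, against 292, 311 and 299 FPKM in control worms (log2 fold change -0.32, SE 0.12, limma adjusted p 0.154). Tested genes at 200 FPKM or more, the class of pccb-1, had a median of -0.13 and a lower quartile of -0.28. The receptor gene nhr-114, needed by worms on diets poor in B12 or methionine, had 29.1 ± 4.22 FPKM in vit-5 RNAi worms and 28.5 ± 5.92 FPKM in control worms (SD, n = 3 each).

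In the list of the Kennedy pathway and phospholipid head groups, 3 of 11 tested genes were higher and 0 lower at an unadjusted limma p under 0.05, beside 26.2% higher among all tested genes. They were lpin-1, for the lipin that makes diacylglycerol (45.2 ± 8.55 FPKM in vit-5 RNAi and 29.9 ± 2.19 FPKM in control worms), pcyt-2.2, for the ethanolamine counterpart of pcyt-1 (3.92 ± 0.34 FPKM in vit-5 RNAi and 2.15 ± 0.62 FPKM in control worms), and cka-1, a choline kinase (29.2 ± 3.53 FPKM in vit-5 RNAi and 18.7 ± 5.47 FPKM in control worms) (mean ± SD, n = 3 each). Their log2 fold changes were 0.57, 0.66 and 0.65, with limma adjusted p of 0.133 to 0.152. After median-of-ratios scaling they were 0.21, 0.39 and 0.30. The choline kinase gene ckb-1 had a log2 fold change of 0.52 (limma adjusted p 0.188). For the 11 tested genes the median was 0.43, or 0.11 after median-of-ratios scaling, against 0.34 and 0.03 for all tested genes. Without the libraries richest in ribosomal RNA it was 0.12.

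The list of SBP-1 and its lipogenic targets also held a nuclear receptor gene and a Mediator subunit gene. Of its 10 tested genes, 4 were higher and 0 lower at an unadjusted limma p under 0.05, against 26.2% higher of all tested genes. The median of the list was 0.28, or -0.053 after median-of-ratios scaling. The 4 were scp-1, the relative of the SREBP escort SCAP (8.93 ± 1.43 FPKM in vit-5 RNAi and 4.12 ± 1.06 FPKM in control worms), the nuclear receptor gene nhr-49 (45.7 ± 3.26 FPKM in vit-5 RNAi and 28.1 ± 5.62 FPKM in control worms), the Mediator subunit gene mdt-15 (27.2 ± 1.94 FPKM in vit-5 RNAi and 17.3 ± 4.61 FPKM in control worms) and the stearoyl-CoA desaturase gene fat-6 (467 ± 109 FPKM in vit-5 RNAi and 319.7 ± 35.2 FPKM in control worms) (mean ± SD, n = 3 each). Limma adjusted p-values were 0.122 to 0.140. The enzyme genes fat-5, fat-7, pod-2 and fasn-1 were on the list but not among the 4. After median-of-ratios scaling the log2 fold changes were 0.66 for scp-1, 0.34 for nhr-49 and 0.31 for mdt-15. For fat-6 it was then 0.16 (limma adjusted p 0.697). For sbp-1 itself the libraries held 12.6, 15.6 and 11.4 FPKM after vit-5 RNAi, against 11.6, 9.59 and 9.85 FPKM in controls. The groups overlapped, and its log2 fold change was 0.31 (limma adjusted p 0.360) and -0.020 after median-of-ratios scaling.

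Among 16 tested methyltransferases that use S-adenosylmethionine, 3 were higher and 0 lower at an unadjusted limma p under 0.05, against 26.2% higher among all tested genes. They were the arginine methyltransferase gene prmt-5 (19.1 ± 3.68 FPKM in vit-5 RNAi and 11.96 ± 2.15 FPKM in control worms) and the histone methyltransferase genes set-17 (67.4 ± 14.3 FPKM in vit-5 RNAi and 45.6 ± 6.28 FPKM in control worms) and met-2 (12.2 ± 4.05 FPKM in vit-5 RNAi and 6.602 ± 2.04 FPKM in control worms) (mean ± SD, n = 3 each), with limma adjusted p of 0.144 to 0.158. The abundant arginine methyltransferase gene prmt-1 had 559.9, 645 and 452 FPKM in vit-5 RNAi worms, against 676, 713 and 704 FPKM in control worms, and its log2 fold change was -0.35 with an SE of 0.16 (limma adjusted p 0.192). It is also in the class at 200 FPKM or more, with its median of -0.13. For the 16 tested genes the median was 0.48, or 0.14 after median-of-ratios scaling, against 0.34 and 0.03 for all tested genes. That scaling gave 0.29 for prmt-5, 0.18 for set-17 and 0.46 for met-2.

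**Figure D4:**
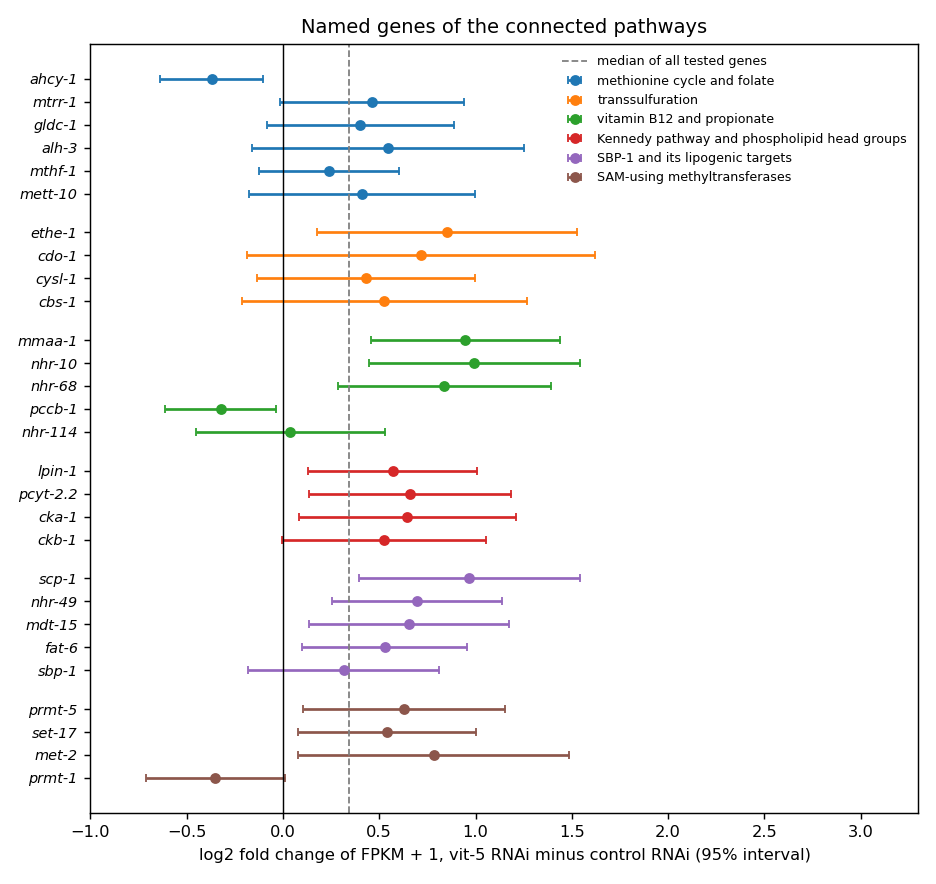
Log2 fold change of FPKM + 1 from limma, vit-5 RNAi minus control RNAi, with its 95% interval (horizontal axis), for the 28 named genes of the 6 connected lists, coloured by list; the dashed line is the median of all tested genes at 0.34. The genes ahcy-1 (-0.37), pccb-1 (-0.32) and prmt-1 (-0.35) lie left of 0, and nhr-10 (0.99) lies farthest right. Tested genes at 200 FPKM or more, the class of ahcy-1, pccb-1 and prmt-1, had a median of -0.13.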

How the data were processed

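Total RNA of whole worms was extracted with Trizol and 3 µg per sample went into NEBNext Ultra libraries, per the labels' protocols. For each library the authors deposited gene-level FPKM, as named in the file headers. Build WBcel235, HTSeq 0.6.1, DESeq 1.18.0, TopHat2 2.0.12 and Bowtie2 2.2.3 are listed, without roles, in the submitters' processing notes, and no source used here names the program behind FPKM. Low values converted to fragments fell within 0.1 of a whole number in at most 34.2% of cases, so counts were not recovered and no counting interval is given.

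Coordinates come from a RefSeq table of WBcel235, in which 45010 of 45132 IDs matched, and overlaps and transcript lengths from Ensembl annotation of the same build. Groups follow the titles. Limma 3.58.1 in R 4.3.3 was fitted to log2(FPKM + 1) of 12908 genes with group as the only term and a mean-variance trend, with Benjamini-Hochberg adjustment and a threshold of 0.05; the pseudocount understates changes of low genes. Sums, shares and log2 ratios were compared by exact 2-sided permutation. No 2 libraries shared more than 0.0697% of exactly equal values. From each list up to 4 genes with the smallest p were named, plus ahcy-1, mtrr-1, mthf-1, mett-10, sbp-1 and nhr-114. The members and lists were chosen with earlier results of these data known. Alternatives were a pseudocount of 0.1, no filter, a replicate block, 3 scalings, the molt level as covariate and leaving out each library; the germline covariate and leaving out the libraries richest in ribosomal RNA were chosen after seeing the data. Figures were drawn with matplotlib 3.10.9 in Python 3.11.15.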

Additional observations from a re-analysis of the deposited data

How the results depend on the processing

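None of the 10 members passed an adjusted limma p of 0.05 in any of the 16 fits, the smallest being 0.0865. FPKM are relative values, 3 libraries a group limit the test, and the depths estimated here are uncertain. Over all tested genes the count passing was 0 as deposited, 4061 with the molt covariate, 3602 with the germline covariate and 0 to 5 when each library was left out, the 4 and 5 arising when vit-5 RNAi replicates 1 and 3 were dropped. Both covariates are means of genes in these libraries, and the cause of the larger counts was not tested. With the replicate number as a block 3806 genes passed, 0 of them members. Whether the numbers mark pairs is not known. The same-numbered libraries' deviations from their group means correlated at 0.753, 0.034 and 0.681, and vit-5 RNAi replicate 2 correlated best with control replicate 1 (0.233). Deviations within a group of 3 are not independent, so these values cannot decide it.

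Median-of-ratios scaling gave log2 fold changes of -0.23 for sams-1, -0.24 for sams-3, -0.15 for sams-4, -0.18 for pmt-1, -0.058 for pcyt-1, -0.23 for cept-2, -0.12 for mthf-1, -0.31 for nhr-114 and -0.020 for sbp-1. Upper-quartile scaling gave -0.15 for sams-1, -0.16 for sams-3, -0.069 for sams-4, -0.10 for pmt-1, -0.15 for cept-2, -0.043 for mthf-1 and -0.24 for nhr-114. Quantile scaling gave -0.097 for sams-1, -0.099 for sams-3, -0.0072 for sams-4, -0.023 for sams-5, -0.0026 for metr-1, -0.084 for pcyt-1, -0.11 for cept-2, -0.019 for gldc-1, -0.047 for mett-10, -0.29 for nhr-114 and -0.13 for sbp-1. The ratio of the synthetase sums was 0.875 and 0.924, and that of the sams-3, sams-4 and sams-5 sums 0.884 and 0.932, after scaling by median of ratios and by upper quartile. All 3 scalings reduce the shift of the median gene by construction.

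The molt covariate gave 0.0053 for cept-1. Without the libraries richest in ribosomal RNA, pmt-1 was at -0.10, nhr-114 at -0.059 and the pmt-2 to pmt-1 log2 ratio difference at 0.029. Leaving out each library gave log2 fold changes of -0.026 to 0.26 for sams-1, -0.063 to 0.35 for pmt-1, -0.091 to 0.14 for cept-1, -0.046 to 0.35 for cept-2 and -0.086 to 0.19 for nhr-114. With no turn of sign it gave 0.13 to 0.48 for sams-5, -0.38 to -0.13 for pmt-2, 0.29 to 0.41 for metr-1 and 0.21 to 0.42 for pcyt-1. The difference in the sams-1 share ran from -5.35 to 3.14 percentage points, that in the pmt-1 to pcyt-1 log2 ratio from -0.31 to 0.042 and that in the cept-2 to cept-1 log2 ratio from -0.10 to 0.45. The pseudocount and the filter turned no sign of the 39 gene results.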

Other observations

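The lists of cell types that whole worms hold were read in the same fit, where 26.2% of all tested genes were higher and 0.906% lower at an unadjusted limma p under 0.05 and 0% passed the adjusted threshold. Of 14 tested intestine genes, the tissue where yolk protein is made, 7 were higher and 0 lower, with a median log2 fold change of 0.45. Of 10 tested neuron genes 4 were higher, with a median of 0.53, and of 10 body wall muscle genes 2 were higher, with a median of 0.18. Of 9 tested hypodermis and glia genes 1 was higher, with a median of -0.56. Of 15 germline and oocyte genes and of 14 tested larval molt genes 0 were called either way, with medians of -0.10 and 0.28. A single sperm gene of 10 was tested, and it was not called. The median of all tested genes was 0.34, and 0.03 after median-of-ratios scaling. With that scaling the list medians were 0.093 for intestine, 0.19 for neurons and -0.18 for body wall muscle. They were -0.91 for hypodermis and glia, -0.47 for germline and oocyte and -0.051 for larval molt. The part of these lists in the values of the 10 enzymes was not tested.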
